A study of Mus musculus with 6 samples.

Results

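The genes described here are 10 genes of selective autophagy: 4 autophagy receptor genes (Sqstm1, Nbr1, Optn and Calcoco1), the LC3 and GABARAP family genes Map1lc3a, Map1lc3b, Gabarap, Gabarapl1 and Gabarapl2, and Becn1. Their probes were found by transcript accession, which gave 11 probes in 20 spots, of 39429 probes for 20659 gene symbols on the array. Gabarap had 2 probes, the Map1lc3b probe was printed in 10 spots, and the other probes were single spots. The genes were put forward with results of these data known, among them the difference of Sqstm1 between the clones and control. Differences of these genes from control are therefore given as a description, with no p-value for any gene, and counts of calls stand only beside the share of all probes called. The difference between the clones was tested. Its size does not use the control arrays, while its standard error pools the spread of all 3 groups.

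RNA came from mouse podocytes, epithelial cells of the kidney glomerulus, conditionally immortalised with a temperature-sensitive SV40 T antigen. All were expanded at 33 °C and then held at 37 °C for 10 days to differentiate, and all had been transduced with a hairpin in the lentiviral vector pGIPZ. The 3 groups of 2 arrays each were shControl (a scrambled hairpin), shTug1 clone 2 and shTug1 clone 3, where the hairpin targets Tug1, a long noncoding RNA. Each shTug1 group is a single clone, and the replicates of a group are called biological without naming separate cultures, so the spread between replicates may be partly technical.

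In macroautophagy a double membrane closes around cytoplasm and delivers it to the lysosome. LC3 and GABARAP proteins are small ubiquitin-like proteins that are joined to phosphatidylethanolamine on that membrane. Receptors bind ubiquitin or other marks on cargo on one side and LC3 or GABARAP proteins on the other, through a short LC3-interacting region, and Sqstm1 (p62) is itself degraded with its cargo. Becn1 is a subunit of the class III phosphatidylinositol 3-kinase complexes that start the membrane. Podocytes divide rarely and have a high basal level of autophagy. An array measures RNA only, so neither lipidated LC3 nor the flow of cargo was measured.

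The 250 bases before the start of transcription are shown for the receptor gene and the GABARAP family genes that the values below turn on: Sqstm1 and Gabarap, each with a probe far above control in the clones, and Gabarapl1, whose probe was below control. They are RefSeq sequences on GRCm38.p6, printed 5′ to 3′ on the gene's strand, at chr11:50210821-50211070 (minus strand) for Sqstm1, chr11:69991120-69991369 (plus strand) for Gabarap and chr6:129532942-129533191 (plus strand) for Gabarapl1. Capitals mark the GC box GGGCGG on either strand.
Sqstm1: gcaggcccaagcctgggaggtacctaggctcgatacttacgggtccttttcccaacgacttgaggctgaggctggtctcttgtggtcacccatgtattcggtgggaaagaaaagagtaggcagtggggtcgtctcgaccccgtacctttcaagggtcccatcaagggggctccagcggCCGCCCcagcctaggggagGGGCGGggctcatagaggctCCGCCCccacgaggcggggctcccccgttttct
Gabarap: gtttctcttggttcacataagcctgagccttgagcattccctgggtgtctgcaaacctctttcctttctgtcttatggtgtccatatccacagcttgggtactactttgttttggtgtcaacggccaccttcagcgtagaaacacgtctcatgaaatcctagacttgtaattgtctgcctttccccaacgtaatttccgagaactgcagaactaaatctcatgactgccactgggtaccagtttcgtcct
Gabarapl1: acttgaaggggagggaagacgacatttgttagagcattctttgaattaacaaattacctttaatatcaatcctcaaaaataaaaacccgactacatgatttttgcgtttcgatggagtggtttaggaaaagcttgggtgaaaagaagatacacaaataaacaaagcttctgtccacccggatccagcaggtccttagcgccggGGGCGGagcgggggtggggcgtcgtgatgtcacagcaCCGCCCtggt
The table held 9 such windows for 8 of the 10 genes, without Becn1 and Map1lc3a. The GC box was found in 6 of the 9 windows, against 32.7% of all 32851 windows. Its 3 matches in Sqstm1 begin 72, 53 and 33 bases before the start. The core CACGTG, a palindrome bound by E-box factors such as TFEB, was in 0 of the 9 windows and in 6.02% of all. TGANNNNGC on either strand, searched as a loose pattern for the antioxidant element, was in 3 of the 9 (Optn, Map1lc3b and Gabarapl2) and in 35.2% of all. In Gabarapl2 it overlaps a GC box.

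Podocyte markers were present: 8 of 11, among them Nphs1, Wt1 and Synpo, were well above background on all 6 arrays, while Podxl and Tcf21 were so on 1 array each. Summed over the podocyte list, the signal in units of each array's 75th percentile lay from 118 to 127 in control, from 63.4 to 66.3 in clone 2 and from 61.2 to 65.3 in clone 3. Smooth muscle and mesangial markers summed to 1090 to 1100, 389 to 411 and 416 to 581 in these groups, with Des above background on no array. Endothelial (0.929 to 2.46), tubular (3.92 to 9.57) and immune markers (2.42 to 12.8) had low sums, with Tek, Emcn and Slc12a1 above background on no array. Some were nevertheless well above background on all 6 arrays. These were 2 of 5 endothelial (Kdr and Pecam1), 3 of 6 tubular (Aqp2, Lrp2 and Slc34a1) and 3 of 4 immune markers (Adgre1, Cd3e and Itgam). On the scale of these sums the median probe was itself 0.57 lower (log2) in the clones than in control. The part of the scaling in the marker shifts was not tested. In such bulk RNA, fewer cells of a type and less RNA per cell cannot be told apart. The part of the marker shifts in the results below was not tested. The targeted RNA went against the label of clone 2. Of 3 Tug1 probes, the one well above background throughout gave −2.88 and −2.49 on the control arrays, −1.86 and −1.88 on those of clone 2 and −3.10 and −3.23 on those of clone 3, so clone 2 lay above both controls and clone 3 below them. A probe of 10 spots, above background on 0 of 2 control arrays, 2 of 2 of clone 2 and 1 of 2 of clone 3, was at least 2.71-fold higher in clone 2 than in control, and the other probe was above background on no array. Groups are therefore named by their labels. The file headers place both control arrays in 1 scan and all 4 shTug1 arrays in another, so wherever a clone is set against control, the hairpin and the scan cannot be told apart. The 75th percentile of the processed intensity was 324.3 and 363.3 in control and from 569.2 to 1055 in the clones.

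Values below are log2 signals relative to the 75th percentile of the same array. They are compared between arrays for 1 probe at a time and never between probes. On this scale the median probe was itself 0.57 lower in the clones than in control, and 0.21 lower after quantile normalization, which gives all arrays the same distribution.

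Sqstm1, the ubiquitin-binding receptor p62, was far higher in both clones than in control. Its probe had values of −2.62 and 0.23 on the control arrays, of 3.92 and 3.43 on the clone 2 arrays and of 1.86 and 3.10 on the clone 3 arrays. All 4 clone arrays lay above both controls, and the control arrays lay 2.85 apart, more than the arrays of either clone. The log2 difference was 4.87 (SE 0.87) for clone 2 and 3.68 (SE 0.87) for clone 3, and 4.27 (SE 0.75, a 19.3-fold difference) for their mean. It was 4.67 after quantile normalization and 2.84 without shControl replicate 1. Clone 2 stood highest and control lowest, and the clones were not separated by the test given below.

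The other receptors did not share one pattern. Optn, the optineurin gene, whose product binds ubiquitin on damaged mitochondria and bacteria, was not well above background in control. Its probe gave −5.03 and −4.58 there, −3.16 and −3.42 on the clone 2 arrays and −3.39 and −3.24 on the clone 3 arrays. Both clones therefore lay above control by a bound only, at least 1.98-fold in clone 2 and at least 1.94-fold in clone 3. With normexp background correction, which lifts dim spots, the log2 difference of the mean was −0.14 in place of 1.50, so the direction of Optn rests on the background correction.

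Calcoco1, a receptor for the endoplasmic reticulum and Golgi apparatus, was higher in both clones, with close control replicates. It gave −1.39 and −1.32 on the control arrays, 0.00 and −0.35 on those of clone 2 and 0.19 and 0.65 on those of clone 3. The groups did not overlap, with control lowest and clone 3 highest. The log2 difference was 1.18 (SE 0.35) for clone 2, 1.78 (SE 0.35) for clone 3 and 1.48 (SE 0.31, 2.79-fold) for their mean, and it stayed between 1.07 and 1.60 over the alternatives tried.

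Nbr1, a ubiquitin-binding receptor related in domain structure to Sqstm1, was not higher in the clones. It had values of −0.38 and −2.04 on the control arrays, of −2.55 and −1.67 on the clone 2 arrays and of −1.85 and −1.82 on the clone 3 arrays. The second control array lay inside the range of the clones, so the groups overlapped, and the log2 difference of the mean was −0.76 (SE 0.50). Without shControl replicate 1 it was 0.06.

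Becn1, the Beclin 1 gene, was higher in both clones. It gave −4.76 and −2.08 on the control arrays, of which only the second was well above background. It gave 0.38 and 0.76 on the clone 2 arrays and −0.19 and −0.05 on the clone 3 arrays. All clone arrays lay above both controls, and the arrays of each clone were within 0.38 of each other. The log2 difference of the mean was 3.65 (SE 0.66) with the dim control array included, but 2.31 without shControl replicate 1 and 1.93 with normexp correction.

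Of the LC3 genes, Map1lc3a, which encodes LC3A, was higher in the clones by a smaller step. It gave −2.75 and −1.51 on the control arrays, −0.14 and −0.56 on those of clone 2 and −0.95 and −0.99 on those of clone 3. The groups did not overlap, with clone 2 highest. The log2 difference of the mean was 1.47 (SE 0.40, 2.76-fold), 0.85 without shControl replicate 1 and 0.83 with normexp correction.

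Map1lc3b, which encodes LC3B, the form most used to mark autophagosomes, did not separate the clones as a pair from control on this scale. Its 10 spots averaged 5.48 and 4.53 on the control arrays, 4.97 and 4.75 on those of clone 2 and 5.59 and 5.67 on those of clone 3. Both clone 2 arrays lay between the controls, and both clone 3 arrays lay above them. The SD of the 10 spots on an array was between 0.046 and 0.12, far below the difference of −0.96 between control replicates 2 and 1, so the spread of this gene was between arrays and not between spots. The log2 difference was −0.14 (SE 0.41) for clone 2, 0.63 (SE 0.41) for clone 3 and 0.24 (SE 0.35) for their mean. After quantile normalization the mean difference was 1.07, and the clone arrays, from 14.61 to 15.04, all lay above both controls (13.86 and 13.59). On the scale used here the mean difference was −0.24 without shControl replicate 2.

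**Figure D1:**
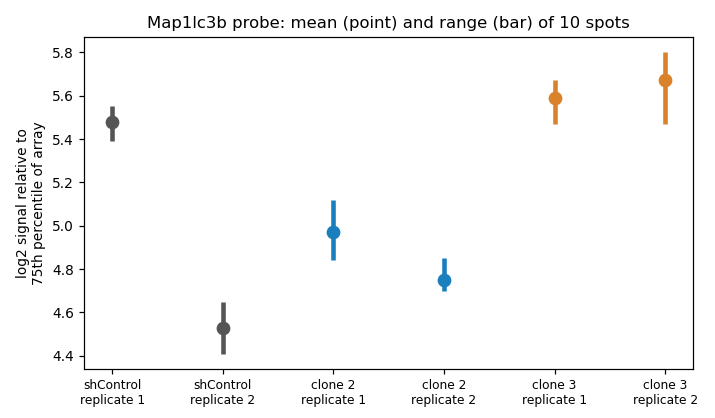
Log2 signal of the Map1lc3b probe relative to each array's 75th percentile (vertical axis) on the 6 arrays (horizontal axis), with the mean of 10 spots as a point and their range as a bar. The ranges of the control arrays, 5.39 to 5.55 and 4.41 to 4.65, lie far apart, and both clone 3 arrays lie above them on average.

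The 2 probes of Gabarap, which encodes the GABA receptor-associated protein of the family, did not give one direction. Probe A_51_P295312 had values of −2.13 and 0.26 on the control arrays, of 3.23 and 3.11 on the clone 2 arrays and of 0.85 and 2.52 on the clone 3 arrays. Probe A_55_P2010223 gave 6.54 and 5.40 on the control arrays, 5.12 and 5.04 on those of clone 2 and 5.79 and 5.64 on those of clone 3. On the first probe all clone arrays lay above both controls, while on the second the clone 2 arrays lay below and the clone 3 arrays between the controls. The log2 difference of the mean was 3.36 (SE 0.71, 10.3-fold) on the first probe and −0.57 (SE 0.38) on the second. It was 2.16 on the first probe without shControl replicate 1, and on the second it turned to 0.30 after quantile normalization. On that scale the clone arrays of the second probe, from 14.92 to 15.00, all lay above both controls (14.84 and 14.48). Both probes carry the same transcript accession, and no single value for Gabarap can be given.

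Gabarapl1 and Gabarapl2, which encode the closest relatives of GABARAP, were bright on every array. Gabarapl1 had values of 6.88 and 6.43 on the control arrays, of 5.45 and 5.31 on the clone 2 arrays and of 5.97 and 5.82 on the clone 3 arrays. All clone arrays lay below both controls, clone 2 furthest, and the log2 difference of the mean was −1.01 (SE 0.30, 2.02-fold lower). Before scaling, the control arrays had processed intensities of 38200 and 31200, the clone 2 arrays of 46200 and 37700 and the clone 3 arrays of 35800 and 47100, so the groups overlapped, and after quantile normalization the difference was −0.10. Gabarapl2 gave 5.31 and 4.82 on the control arrays, 4.84 and 4.89 on those of clone 2 and 5.15 and 4.98 on those of clone 3. The groups overlapped, with a log2 difference of the mean of −0.10 (SE 0.30). After quantile normalization it turned to 0.74, and the clone arrays, from 14.37 to 14.75, all lay above both controls (13.70 and 13.89).

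**Figure D2:**
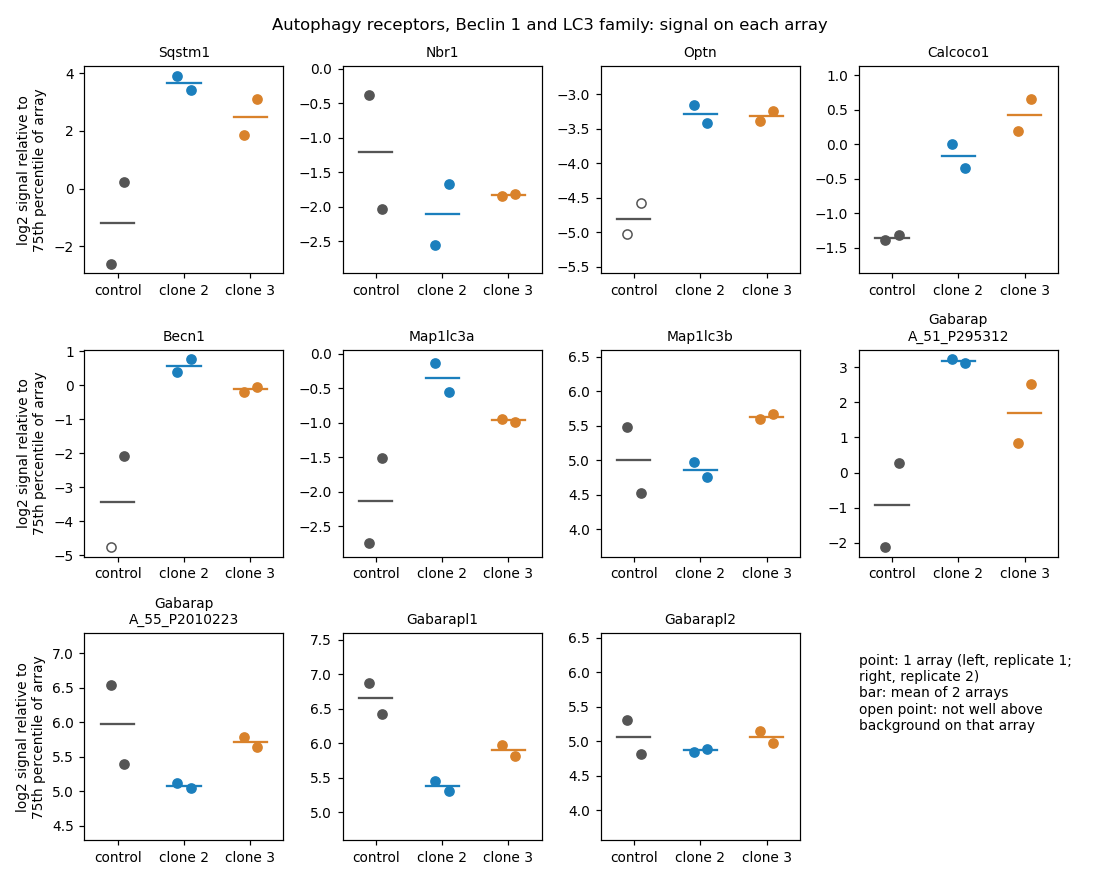
Log2 signal relative to the array's 75th percentile (vertical axis, each panel spanning its own range) for the 11 probes in shControl, shTug1 clone 2 and shTug1 clone 3, with 1 point per array, bars at the group means and open points where the probe was not well above background. Sqstm1, Optn, Calcoco1, Becn1, Map1lc3a and 1 Gabarap probe have all clone arrays above both controls, and Gabarapl1 has them all below.

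Over the 11 probes, all of which passed the filter on dim signals, the fit placed 6 above control, 1 below and 4 in neither direction at an adjusted p of 0.05 for the mean of the clones. Among all 25545 probes tested, 11.8% were above and 27.6% below, 3009 and 7045 probes. After quantile normalization 7 of the 11 probes were above and 0 below, with 3395 and 3674 of all probes. Optn and Becn1 passed the filter only through the clones, where they are higher, which favours their calls. A stricter filter, which asks for signal well above background on all 6 arrays, leaves both out. With it 4 of 9 probes were above and 1 below, with 1939 and 7383 of all 19799 probes. The median log2 difference of the 11 probes was 1.47, against −0.57 for all probes. For clone 2 alone the counts were 6 above and 1 below, with 12.4% and 30.9% of all probes. For clone 3 alone they were 4 above and 0 below, with 4.78% and 4.21%. These comparisons share the control arrays. All clone arrays lay above both controls for 6 of the 11 probes, against 14% of all probes, and below them for 1, against 40.3%. Because the genes were chosen with such values known, nothing is read from these counts. They also moved with single arrays left out, which leaves a group with a single array. The calls over all probes moved in those fits as well, so those counts are not given.

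**Figure D3:**
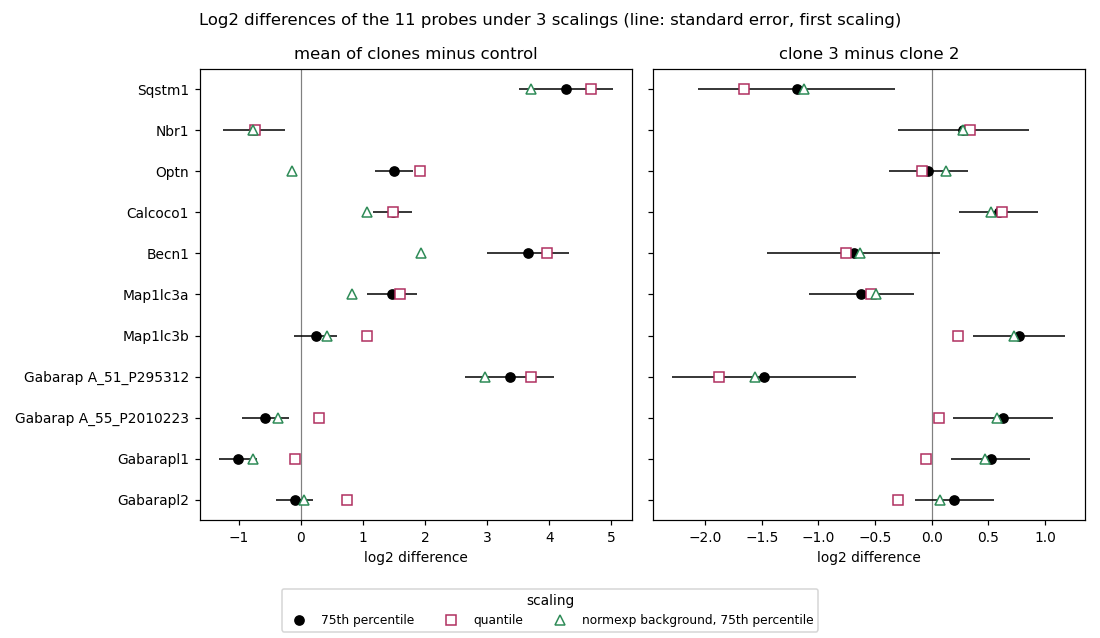
Log2 difference (horizontal axis) of the 11 probes for the mean of the clones minus control (left) and clone 3 minus clone 2 (right) under 3 scalings, with a line for the standard error under scaling to the 75th percentile. The 6 highest probes on the left stay above 0 under each scaling except Optn, which reads −0.14 with normexp correction, and the bright family probes move right after quantile normalization.

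The 2 clones, which were in the same scan, were compared directly. None of the 11 probes passed the test between clone 3 and clone 2 (limma, 0 of 11 at an adjusted p of 0.05, and 0 of 11 at an unadjusted p under 0.05), where 1.86% of all 25545 probes did. The largest differences were −1.48 (95% interval −3.38 to 0.41, limma adjusted p = 0.379) on the Gabarap probe A_51_P295312 and −1.19 (−3.21 to 0.83, adjusted p = 0.429) for Sqstm1, both lower in clone 3. Map1lc3b was higher in clone 3 by 0.77 (−0.18 to 1.72, adjusted p = 0.379), Calcoco1 by 0.59 (−0.23 to 1.42, adjusted p = 0.387) and Gabarapl1 by 0.52 (−0.29 to 1.32, adjusted p = 0.406). The 95% interval was −2.47 to 1.09 for Becn1, −1.70 to 0.46 for Map1lc3a, −1.07 to 1.62 for Nbr1, −0.39 to 1.65 for the Gabarap probe A_55_P2010223 and −0.61 to 1.01 for Gabarapl2. For Optn it was −0.84 to 0.79, and every other interval reached beyond a log2 difference of 1, so the clones are not shown to be alike. Gabarapl1 and Gabarapl2 turned to −0.05 and −0.30 after quantile normalization. Clone 3 and clone 2 arrays did not overlap for 9 of the 11 probes, against 75% of all probes. Both clone 3 arrays were the higher ones for 5 (56.4% of all) and the lower ones for 4 (18.6% of all).

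For Sqstm1 and the Gabarap probe A_51_P295312, the 6 arrays rose in exactly the order of their 75th percentiles: shControl replicate 1 (324.3), shControl replicate 2 (363.3), clone 3 replicate 1 (569.2), clone 3 replicate 2 (831.6), clone 2 replicate 2 (949.3) and clone 2 replicate 1 (1055). Of all probes tested, 1.31% rose and 9.93% fell in that order. Becn1 kept it except that the clone 2 arrays changed places. The part of this array property in the values of these genes was not tested.

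**Figure D4:**
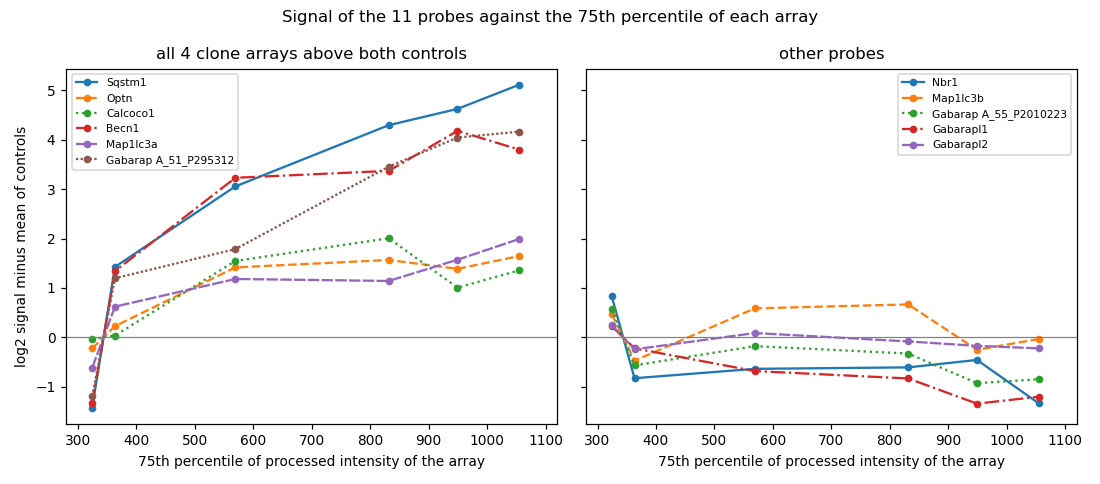
Log2 signal minus the mean of the 2 control arrays (vertical axis) against the 75th percentile of processed intensity of each array (horizontal axis), for the 6 probes with all clone arrays above both controls (left) and the other 5 (right), 1 line per probe. Sqstm1 and the first Gabarap probe climb at every step from 324.3 to 1055, and the probes on the right show no climb of that size.

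The genes whose pattern over the 6 arrays was most like that of Sqstm1 were taken from 12331 genes well above background on all arrays, by the root mean square difference of log2 values set to the control mean. They were Eif3b (0.25), a subunit of translation initiation factor 3, Lrrc59 (0.39), an endoplasmic reticulum membrane protein gene, Tmbim6 (0.42), which encodes a membrane protein of the same compartment, Cct4 (0.45), a chaperonin subunit, and Dld (0.50), dihydrolipoamide dehydrogenase. None is an autophagy receptor or LC3 family gene. On the same measure Becn1 was at 0.68 and the Gabarap probe A_51_P295312 at 0.78 from Sqstm1, which would place them at ranks 19 and 30. Map1lc3a (2.38), Optn (2.43) and Calcoco1 (2.53) were further away, and Nbr1 was at 4.39.

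The rest of the autophagy machinery went both ways. Of 57 listed genes outside the 10, 53 were tested, each by its brightest probe. At a limma adjusted p of 0.05, 11 rose in the mean of the clones relative to control, 19 fell and 23 did not pass, where 11.3% of all 15085 genes with a symbol rose and 29.8% fell. Their median log2 difference was −0.49, against −0.61 for all genes. After quantile normalization 14 rose and 8 fell. Over all probes the same change of scaling moved the calls from 3009 higher and 7045 lower to 3395 and 3674. The balance of directions thus depends on the scaling, for all probes as for these genes. The counts also moved with single arrays left out, where the calls over all probes moved as well, so those counts are not given. By its brightest probe, no gene of the list passed between clone 3 and clone 2 (0 of 53 by limma, against 1.56% of all genes). The dimmer probe of Tmem41b, above background on 0 of 2 clone 3 arrays, was the exception among the other probes, at −2.26 (limma adjusted p = 0.0334).

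By step, 0 of 5 initiation genes rose and 2 fell, 3 of 7 nucleation genes rose and 3 fell, and 2 of 7 membrane supply genes rose and 3 fell. Of the 10 tested genes of the conjugation systems that lipidate LC3 and GABARAP proteins, 2 rose and 5 fell. Of 6 fusion genes 2 rose and 2 fell, of 10 other receptor genes 1 rose and 2 fell, and of 8 regulators 1 rose and 2 fell. These counts rest on the brightest probe, and dimmer probes, named after their values were seen, went the other way in some genes. Tfe3 was at −1.16 on the brightest probe and 1.02 on another, Bnip3l at −1.24 and up to 2.55, and the initiation gene Rb1cc1 at −0.89 and 1.86. The largest rises among genes well above background on all arrays were Tax1bp1, a ubiquitin-binding receptor, at 3.51 (SE 0.79) and Atg2a, a lipid transfer protein gene, at 2.66 (SE 0.52). They and the largest falls below were picked by their values in this comparison, so they are given as a description, with no p-value. Tax1bp1 was 1.95 without shControl replicate 1. Atg2a was 1.71 without shControl replicate 1 and 1.68 with normexp correction.

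The largest falls were in conjugation genes. Atg4d, a protease that processes LC3 proteins, was lower by 1.78 (SE 0.40) and Atg10, the enzyme that transfers ATG12, on its brighter probe by 1.78 (SE 0.43). The other Atg10 probe, above background on 0 of 2 control arrays, was at 2.12. Without shControl replicate 1, Atg4d was −1.2 and Atg10, on its brighter probe, −1.12.

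Of the regulators, 4 were chosen by name for their link to Sqstm1, optineurin or lysosomal genes. The list was drawn up with earlier results of these data known. The differences of these 4 from control are therefore given as a description, with no p-value. Nfe2l2, the NRF2 gene, was at 1.89 (SE 0.75) for the mean of the clones, with 0.33 without shControl replicate 1 and 3.44 without shControl replicate 2. With normexp correction Nfe2l2 was at 1.8. Keap1, whose product Sqstm1 sequesters, was at 0.44, turning to −0.35 without shControl replicate 1 and −0.05 with normexp correction. Tbk1, the kinase that phosphorylates optineurin and p62, was at 0.87 for the mean of the clones. It was at 0.97 after quantile normalization and 0.37 with normexp correction. Tbk1 was at 1.51 in clone 2 and 0.23 in clone 3, and the difference of the clones was −1.29 (limma adjusted p = 0.17). Tfeb, the transcription factor of lysosomal genes, was at −0.37. Among the other regulators, Mtor, a kinase that restrains autophagy, was at 2.34, while Rptor was at −1.32. Both were named after their values were seen and are given as a description, with no test.

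The partners of Becn1 in its kinase complexes were picked after their values were seen and are given as a description, with no test. The catalytic subunit gene Pik3c3, above background on 1 of 2 control arrays, was at 2.21 on its brighter probe and at 3.86 on the other, and the first was at 0.71 with normexp correction. Pik3r4, the regulatory subunit gene, was at 0.95. Atg14, which directs the complex to the forming membrane, was at −0.77. Uvrag, its counterpart in the endosomal complex, was at −0.89, and at −0.12 after quantile normalization. Becn1 itself was at 3.65.

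**Figure D5:**
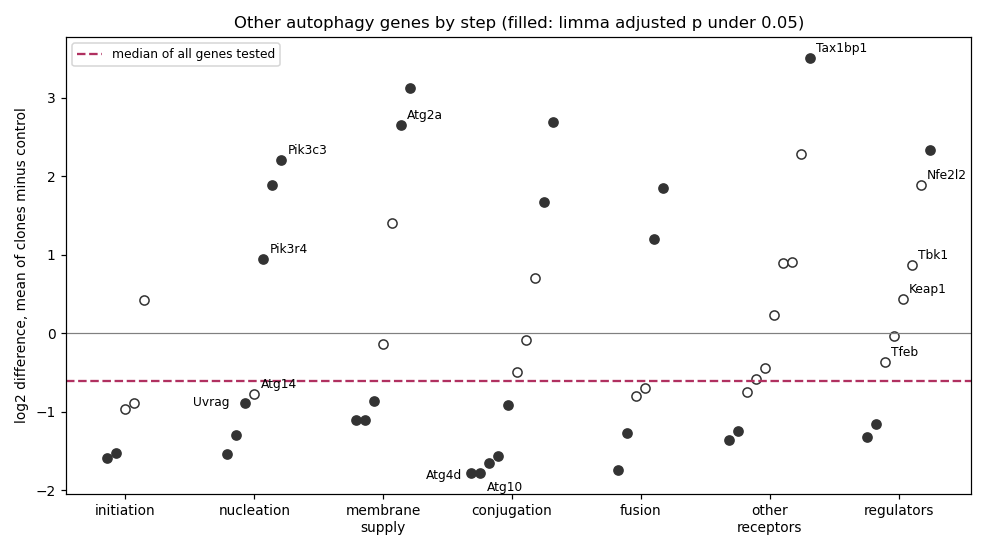
Log2 difference, mean of the clones minus control (vertical axis), of 53 other autophagy genes grouped by step (horizontal axis), filled where the limma adjusted p was under 0.05, with a dashed line at the median of all genes, −0.61. Filled points lie on both sides of 0 in 6 of the 7 steps, and only below it among initiation genes.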

How the data were processed

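RNA of 6 samples was measured on 6 one-colour (Cy3) Agilent arrays. The deposited files hold an intensity per spot, background-subtracted and detrended, per the file headers, with Agilent Feature Extraction 11.0.1.1 named in the submitters' processing notes. The series table holds log2 values deposited by the authors, with medians from 8.98 to 9.13 and a correlation of 0.998 to 1.000 with the scanner values of the same array over 19819 shared probes. How they were normalized between arrays is unknown. Scanner signals were divided by each array's 75th percentile and put on a log2 scale. Control and outlier spots were dropped, then the spots of each probe averaged. A probe was kept if both arrays of any group had it well above background, 25559 in all, less 14 lost to outlier marks. Symbols came from a RefSeq table by accession (27234 of 39429 probes). limma 3.58.1 in R 4.3.3 (package data.table, version 1.17.8) fitted 3 group means over all 25545 probes with Benjamini-Hochberg adjustment at 0.05, two-sided. matplotlib 3.10.9 drew the figures. The number of arrays, 2 per group, limits the precision.

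A probe is called well above background by the scanner software. For a bound, a dim array took its lowest signal well above background, or the probe's own if that was higher. The 10 genes and all lists were chosen with earlier results of these data known. Genes named by rule were the 10 genes, Tug1, the 2 largest rises and falls of the machinery list past the threshold and above background on all arrays, Tfeb, Nfe2l2, Keap1 and Tbk1, and the 5 genes most like Sqstm1. Tmem41b was named because its dimmer probe passed between the clones. Tfe3, Bnip3l, Rb1cc1, Mtor, Rptor, Pik3c3, Pik3r4, Atg14 and Uvrag were named after their values were seen. The fit was tested on simulated data. The files lack the mean signal, so normexp used the median signal with an offset of 50. Replicate numbers did not pair the samples: deviations of same-numbered arrays correlated at −0.034, 0.12 and −0.091 between groups. Alternatives were quantile normalization, normexp, no filter, a stricter filter, the deposited table, a replicate block, outlier spots kept, 1 value per gene, the clone arrays alone, and each array left out. Probe sequences and protein sequences were not used here. 1 gene of the podocyte marker list is not reported here and was left out of its count and sum.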

Additional observations from a re-analysis of the deposited data

How the results depend on the processing

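Between clone 3 and clone 2, none of the 11 probes passed under any alternative that left out no single array (limma). The same held for machinery genes, by the brightest probe or the median over probes. The main fit gave 0 of 11 and 0 of 53. The deposited values cannot add to this, because no probe passed there (0 higher and 0 lower of all 19819). The stricter filter adds little, with 6 higher and 38 lower of all 19799 probes. The clone arrays alone gave the most calls of these fits, 161 higher and 668 lower of all 25552 probes. With the clone arrays alone, which takes the controls out of the spread, the limma adjusted p of the 11 probes ranged from 0.0715 for Map1lc3b to 0.922 for Optn. For the mean of the clones and for each clone alone, the counts of probes above and below control moved with 1 array left out. Calls over all probes moved in those fits too, so the counts are not given. With all arrays kept, the count below was 0, for the mean of the clones and for clone 2, after quantile normalization and in the deposited table. For the mean, 3674 of all 25545 and 3843 of all 19819 probes were lower there, and for clone 2, 3859 and 4084. For clone 3 the count above was 0 without the filter on dim probes, where 500 of all 39402 probes were higher. It was 2 of 9 in the deposited table, where 1326 of all 19819 probes were higher. Of the machinery genes 1 to 16 rose and 0 to 25 fell with 1 array left out. The falls numbered 8 after quantile normalization, 12 without the filter, 9 in the deposited table and 12 with the median over probes. With normexp correction all 4 differences of Optn turned: to −0.14 for the mean, −0.20 for clone 2, −0.08 for clone 3 and 0.13 for clone 3 minus clone 2.

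For clone 3 minus clone 2 with 1 array left out, Nbr1 ranged from −0.17 (without shTug1 clone 2 replicate 1) to 0.72, Optn from −0.16 to 0.11 (without that same array) and was 0.05 without shTug1 clone 3 replicate 1. Atg2a ranged from −0.09 (without shTug1 clone 2 replicate 2) to 0.45, and Atg10 from −0.53 to 0.09 (without shTug1 clone 3 replicate 1). Gabarapl1 was −0.05 and −0.07, and Gabarapl2 −0.30 and −0.31, after quantile normalization and in the deposited table. For the mean of the clones, Atg10 was 0.17 with the median over its probes, and with 1 array left out Tfeb ranged from −0.75 to 0.01 and Keap1 from −0.35 to 1.23, turning without shControl replicate 1. Keap1 was −0.05 with normexp correction. The cause was not tested. With a replicate block the probes above control stayed 6 for the mean of the clones, with 3069 of all 25545 probes higher. The replicate numbers do not pair these samples. The stricter filter leaves out Optn and Becn1. Dim control signals limit Optn and Becn1, and 2 arrays per group limit all values.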
